A study of Homo sapiens with 8 samples.

Results

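Transcripts of CC chemokines, colony-stimulating factors and TNF were compared in ZR-75-1 cells with and without knockdown of EI24. The set was named by gene symbol and held 10 genes: the chemokines CCL2, CCL5, CCL20 and CX3CL1, the growth factors CSF1, CSF2 and CSF3, the cytokine IL32, and the TNF family ligands LTB and TNF. Of these 10 genes, 9 had a transcript cluster with 1 gene symbol among the 18417 genes read from the array, and CSF2 was not analysed here. ZR-75-1 is a human breast cancer cell line of luminal, estrogen receptor positive type, and EI24 is a membrane protein of the endoplasmic reticulum that is induced by p53. The 4 lines compared were clone 1 and clone 2, which are ZR-75-1 cells with shRNA against EI24 (shEI24), then ZR-75-1 cells that carry an shRNA against GFP as control (shGFP), and untreated parental ZR-75-1 cells. Each line had 2 arrays, 8 in all. The methods give a single medium for ZR-75-1 cells and name no agent added for the arrays. They do not say whether the lines with shRNA were kept under drug selection. Each shEI24 line is 1 clone. Whether both clones carry the same hairpin, and whether shGFP is a clone or a pool, was not given in the sources used here. The sources do not say whether the arrays of a line are separate cultures, and the p-values therefore cover only array-to-array spread, part or all of which may be technical.

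Chemokines are small secreted proteins that direct the migration of leukocytes through receptors on those cells. CCL2 draws monocytes through CCR2, CCL5 draws T cells and monocytes, and CCL20 is the ligand of CCR6 on T cells, B cells and dendritic cells. CX3CL1, or fractalkine, is made as a membrane-bound molecule that is shed by ADAM10 and ADAM17, and it is ligand to CX3CR1. The colony-stimulating factors act on the myeloid lineage: CSF1 on macrophages, CSF2 on granulocytes and macrophages, and CSF3 on neutrophils. TNF and LTB are trimeric ligands that activate NF-κB in the cells that receive them, and IL32 is an intracellular and secreted cytokine that can induce TNF. Promoters of many of these genes are bound by NF-κB, and tumor cells that make these factors can recruit and maintain macrophages and neutrophils. The study asked how loss of EI24 alters NF-κB activity and the properties of tumor cells, and the comparison of the shEI24 clones with shGFP cells addresses the transcripts of these factors.

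Promoter sequence was at hand from RefSeq (GRCh38.p14) for 4 of the 9 measured genes, CCL20, IL32, LTB and TNF. Transcripts of all 4 were called higher over both shEI24 clones, TNF without being above background in any line. The 250 bases before the start site are shown for the 3 of them that held a match to the κB consensus. This is the 10-base motif that NF-κB dimers bind. Each is written 5′ to 3′ on the strand of its gene, with the κB match in capitals. The motif searched was GGGRNWYYCC (R is A or G, N any base, W A or T, Y C or T). In CCL20 and LTB the match is on the opposite strand, so the capitals there show its reverse complement.
CCL20, chr2:227813592-227813841, plus strand: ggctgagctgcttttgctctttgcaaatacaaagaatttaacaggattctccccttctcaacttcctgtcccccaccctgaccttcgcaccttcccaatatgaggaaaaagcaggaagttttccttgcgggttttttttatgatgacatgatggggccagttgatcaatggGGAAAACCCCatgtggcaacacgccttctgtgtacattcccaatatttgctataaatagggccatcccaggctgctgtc
IL32, chr16:3065153-3065402, plus strand: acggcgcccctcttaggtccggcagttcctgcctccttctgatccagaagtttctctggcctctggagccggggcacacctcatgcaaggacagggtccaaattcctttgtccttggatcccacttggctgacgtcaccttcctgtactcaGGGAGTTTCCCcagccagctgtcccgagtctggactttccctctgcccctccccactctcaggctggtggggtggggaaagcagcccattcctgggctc
LTB, chr6:31582426-31582675, minus strand: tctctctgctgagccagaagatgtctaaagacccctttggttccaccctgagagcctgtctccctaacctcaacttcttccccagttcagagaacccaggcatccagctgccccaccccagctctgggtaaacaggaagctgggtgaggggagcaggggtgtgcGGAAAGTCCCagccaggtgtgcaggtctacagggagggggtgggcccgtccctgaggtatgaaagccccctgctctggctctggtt
The match began 79 bases before the start site in CCL20 and 86 bases before it in LTB. In IL32, 2 overlapping matches, 1 on each strand, began 99 and 98 bases before the first start site. The second start site of IL32 and the TNF window had no match. Of 35116 RefSeq promoter windows of the same length, 5.21% held at least 1 match on either strand. A TATA box (TATAAA, searched on both strands) lay 29 bases before the start sites of both CCL20 and TNF, against 10.7% of all windows, and the AP-1 site TGANTCA, searched likewise, was found in none of the 4 genes, against 6.57% of all windows. These are matches of letters and were not tested for binding.

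Values are log2 intensities. A level was called above background where the mean of a line exceeded the 95th percentile of 341 olfactory receptor genes in that line, which was 6.76 in clone 1, 6.75 in clone 2, 6.72 in shGFP cells and 6.64 in parental cells. Against a line that is not above background, a fold is given as "at least", from the mean of the brighter line over that background level. EI24 itself, the targeted gene, measured 8.64 and 8.43 in clone 1, 9.25 and 9.19 in clone 2, 11.97 and 11.91 in shGFP cells, and 12.08 and 12.09 in parental cells. All shEI24 arrays were below all control arrays, and the log2 fold change of both clones against shGFP was −3.06 ± 0.08 (SE, limma adjusted p = 8.6e-09). Of the clones, clone 1 had the lower EI24 level, with a difference from clone 2 of −0.68 ± 0.10 on the log2 scale (limma adjusted p = 0.0023).

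The label of the cells was checked against marker genes. All 9 luminal markers, ESR1, GATA3, KRT8 and CDH1 among them, were above background in the control lines, and all 9 fell in the shEI24 clones, where their mean level was 8.42 to 8.78 per array and 6 of 9 remained above background, against 12.01 to 12.07 in the control arrays. Of 9 mesenchymal markers, 5 rose (VIM, SNAI2, FN1, ZEB1 and CDH2, the last not after a second quantile normalization). Of 15 leukocyte markers measured, 3 were called higher (2 higher and 1 lower after a second quantile normalization), where 26.8% of all genes were, and the mean level of the list was 6.46 to 6.62 in the shEI24 arrays against 6.04 to 6.23 in the control arrays. CD68, a lysosomal protein that is also made outside leukocytes, rose by 3.95 ± 0.11, and CD14 rose by 0.89. The third was PTPRC, which defines leukocytes (0.21, limma adjusted p = 0.043), not above background in any line and not called after that normalization. Of 5 endothelial markers, KDR and PECAM1 rose. The part of these shifts in the results below was not tested. In bulk RNA, fewer cells of a type and less RNA per cell cannot be told apart.

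Against shGFP cells, all 9 measured genes were higher in the shEI24 clones at a limma adjusted p under 0.05, where 26.8% of all 18417 genes were called higher and 29.0% were called lower. The difference was at least 2-fold for 5 of the 9, CCL20, CCL5, CSF1, IL32 and CSF3, where 8.69% of all genes passed both limits. The median log2 fold change was 1.28 over the 9 genes and 0.08 over all genes. The 9 genes were listed with earlier results of these data known, so their shares and median describe a chosen set. On 6 of the 9 genes (those 5 and CX3CL1), every shEI24 array lay above every shGFP and parental array, which held for 23.8% of all genes. The remaining 3, CCL2, LTB and TNF, had small differences and overlapped with parental cells. CCL2 and TNF were not above background in any line, so 7 of the 9 were measured above background somewhere.

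**Figure D1:**
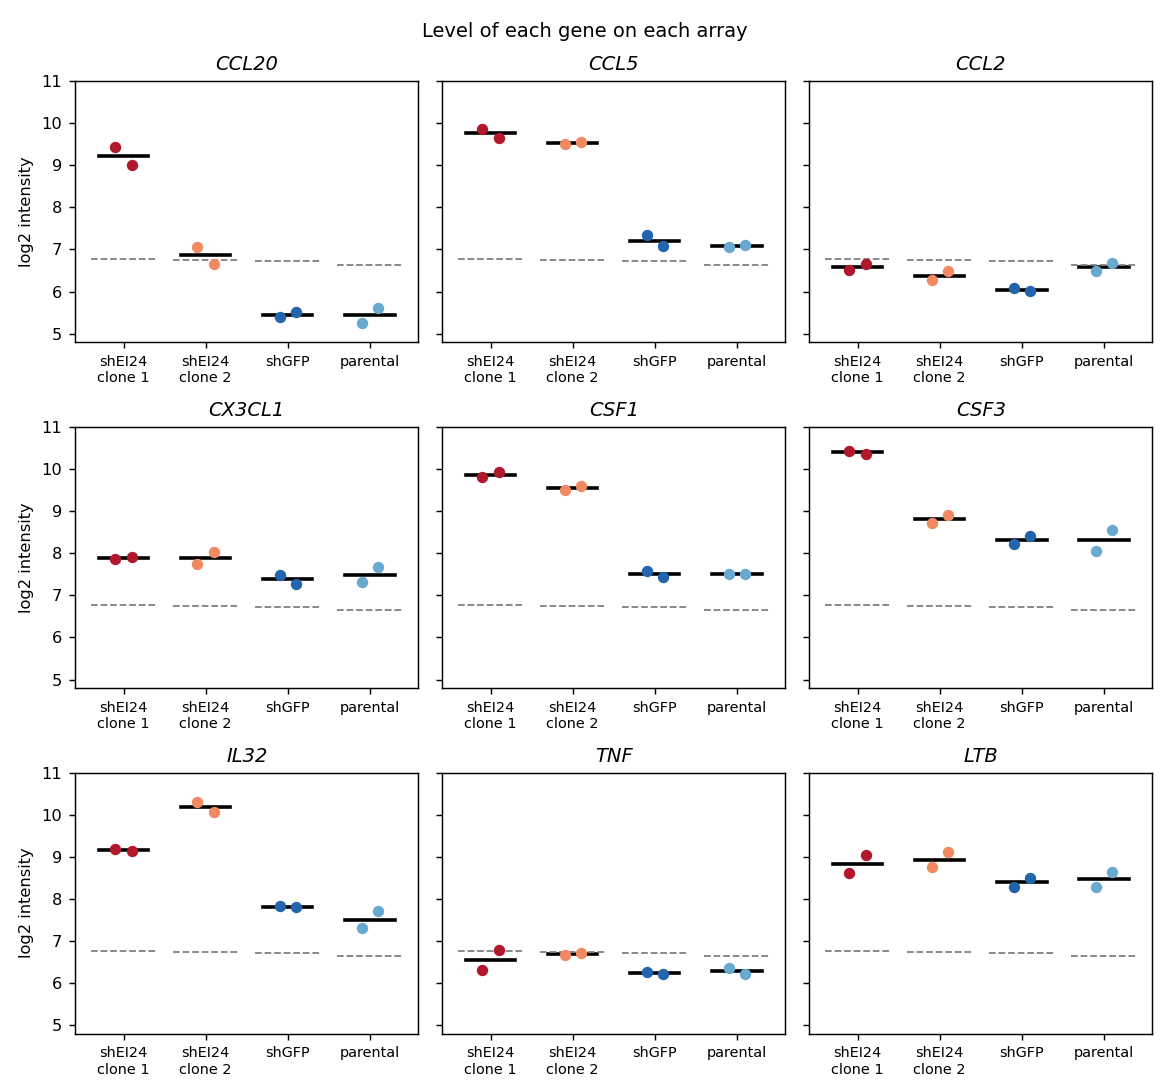
Level of each of the 9 genes as log2 intensity (vertical axis) on each array (points), with the mean of the line (black bar) and the background level of that line (dashed line). The 4 shEI24 arrays are above all 4 control arrays for CCL20, CCL5, CSF1, CSF3, IL32 and CX3CL1, and CCL2 and TNF have means under the dashed line in all 4 lines.

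CCL20 was higher in both clones than in shGFP cells, and the clones differed in it. It measured 9.43 and 9.01 in clone 1, 7.06 and 6.66 in clone 2, 5.39 and 5.52 in shGFP cells, and 5.26 and 5.61 in parental cells. Both clones lay above both control lines with no overlap, clone 1 lay far above clone 2, and the controls were under the background level. The fitted log2 difference of the 2 clones from shGFP was 2.58 ± 0.16 (SE, limma adjusted p = 1.2e-06). Since CCL20 was not above background in shGFP cells, the supported fold over both clones was at least 2.49, the level in clone 1 was at least 5.64-fold that of shGFP cells, and that in clone 2 at least 1.10-fold. One array of clone 2, at 6.66, was itself under the background level of that line. Clone 1 exceeded clone 2 by 2.36 ± 0.18 on the log2 scale, a 5.14-fold difference (limma adjusted p = 0.00013). shGFP and parental cells did not differ beyond their spread (0.02, 95% confidence interval −0.40 to 0.44). When every line was averaged to 1 value and the controls were pooled, CCL20 did not pass (2.59, limma adjusted p = 0.064).

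CCL5 rose to a like extent in both clones. It measured 9.87 and 9.66 in clone 1, 9.51 and 9.56 in clone 2, 7.34 and 7.09 in shGFP cells, and 7.06 and 7.10 in parental cells. The lowest shEI24 array stood 2.17 log2 units above the highest control array, the widest gap of the 9 genes, and all 4 lines were above background. Its log2 fold change against shGFP was 2.44 ± 0.10, or 5.41-fold (SE, limma adjusted p = 8.4e-08). Clone 1 exceeded clone 2 by 0.23 (95% confidence interval −0.03 to 0.49, limma adjusted p = 0.24), which did not pass, and shGFP exceeded parental cells by 0.13, which did not pass (limma adjusted p = 0.57).

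CCL2 was not above background in any line, and its difference depended on which control was used. It measured 6.52 and 6.66 in clone 1, 6.28 and 6.48 in clone 2, 6.09 and 6.004 in shGFP cells, and 6.50 and 6.69 in parental cells. The shEI24 arrays lay above both shGFP arrays and overlapped with the parental arrays. The log2 difference was 0.43 ± 0.10 against shGFP (SE, limma adjusted p = 0.0040) and −0.11 ± 0.10 against parental cells (limma adjusted p = 0.37). CCL2 was lower in shGFP than in parental cells by −0.54 ± 0.11 (limma adjusted p = 0.018), the only 1 of the 9 genes to differ between the controls, where 10.7% of all genes differed. Without any 1 of the 4 shGFP and parental arrays that difference did not pass (−0.64 to −0.45). No fold is given, because both lines compared were not above background.

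CX3CL1 rose by a small amount in both clones. It measured 7.87 and 7.90 in clone 1, 7.74 and 8.02 in clone 2, 7.49 and 7.26 in shGFP cells, and 7.32 and 7.67 in parental cells. All shEI24 arrays were above all control arrays, but the gap between the nearest pair was 0.07 log2 units. Against shGFP the log2 fold change was 0.51 ± 0.13 (SE, limma adjusted p = 0.0076), and clone 1 minus clone 2 was 0.01 (95% confidence interval −0.33 to 0.34). Without shGFP replicate 2 the comparison with shGFP did not pass (0.39, limma adjusted p = 0.086). Against parental cells the difference was 0.39 ± 0.13 (limma adjusted p = 0.026).

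CSF1 was the more uniform of the 2 colony-stimulating factors measured. It measured 9.80 and 9.92 in clone 1, 9.50 and 9.60 in clone 2, 7.57 and 7.43 in shGFP cells, and 7.50 and 7.51 in parental cells. The lowest shEI24 array was 1.92 log2 units above the highest control array. Relative to shGFP, the log2 fold change was 2.21 ± 0.08, or 4.62-fold (SE, limma adjusted p = 5.4e-08). Clone 1 exceeded clone 2 by 0.31 ± 0.10 (limma adjusted p = 0.060), which did not pass, and the controls differed by −0.01 (95% confidence interval −0.22 to 0.21).

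CSF3 was high mainly in clone 1. It measured 10.43 and 10.36 in clone 1, 8.72 and 8.90 in clone 2, 8.22 and 8.41 in shGFP cells, and 8.06 and 8.55 in parental cells. All shEI24 arrays were above all control arrays, although the lowest array of clone 2 exceeded the highest parental array by only 0.16. The log2 fold change against shGFP was 2.08 ± 0.16 in clone 1, a 4.22-fold difference (limma adjusted p = 5.8e-06), and 0.49 ± 0.16 in clone 2 (limma adjusted p = 0.027). The value of clone 2 did not pass without clone 2 replicate 2 (0.40, limma adjusted p = 0.13) or without shGFP replicate 1 (0.39, limma adjusted p = 0.16). Clone 1 exceeded clone 2 by 1.59 ± 0.16 (limma adjusted p = 0.00043). Over both clones the difference from shGFP was 1.28 ± 0.14 (limma adjusted p = 4.0e-05), which did not pass when every line was averaged to 1 value and the controls were pooled (1.29, limma adjusted p = 0.13).

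IL32 rose in both clones and was higher in clone 2. It measured 9.18 and 9.14 in clone 1, 10.29 and 10.06 in clone 2, 7.83 and 7.80 in shGFP cells, and 7.31 and 7.71 in parental cells. The groups did not overlap, with a gap of 1.31 log2 units between the lowest shEI24 array and the highest control array. The log2 fold change against shGFP was 1.85 ± 0.12, or 3.61-fold (SE, limma adjusted p = 1.7e-06). Clone 1 was lower than clone 2 by −1.01 ± 0.14 (limma adjusted p = 0.0020), the opposite direction to CCL20 and CSF3. shGFP exceeded parental cells by 0.31 ± 0.14, which did not pass (limma adjusted p = 0.22).

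LTB, which forms heterotrimers with LTA that signal through LTBR, was above background in every line and rose little. It measured 8.61 and 9.04 in clone 1, 8.75 and 9.11 in clone 2, 8.29 and 8.50 in shGFP cells, and 8.29 and 8.64 in parental cells. The shEI24 arrays were above both shGFP arrays, but 1 array of clone 1 was below 1 parental array. The log2 fold change against shGFP was 0.48 ± 0.16 (SE, limma adjusted p = 0.031), and the difference passed in clone 2 (0.53, limma adjusted p = 0.038) and not in clone 1 (0.43, limma adjusted p = 0.090). The clones themselves differed by −0.11 (95% confidence interval −0.53 to 0.32). Array 2 exceeded array 1 in all 4 lines, by 0.22 to 0.43, and with the replicate number as a block LTB passed in clone 1 too (limma adjusted p = 0.0020). Leaving out clone 1 replicate 2, clone 2 replicate 2, shGFP replicate 1 or shGFP replicate 2 ended the call over both clones in the fit without that block (0.37, 0.39, 0.37 and 0.59, with limma adjusted p of 0.072, 0.074, 0.21 and 0.054). LTB had 3 transcript clusters with identical values and a dimmer cluster, in which the log2 fold change was 0.35 ± 0.10.

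TNF was not above background in any line. It measured 6.30 and 6.79 in clone 1, 6.68 and 6.71 in clone 2, 6.27 and 6.22 in shGFP cells, and 6.37 and 6.21 in parental cells. The shEI24 arrays were above both shGFP arrays, and 1 array of clone 1 was below 1 parental array. The log2 difference from shGFP was 0.38 ± 0.13 (SE, limma adjusted p = 0.032), with 0.45 in clone 2 (limma adjusted p = 0.030) and 0.30 in clone 1 (limma adjusted p = 0.12). It did not pass after a second quantile normalization of the genes (0.18, limma adjusted p = 0.23), nor without clone 2 replicate 2, shGFP replicate 1 or shGFP replicate 2 (0.37, 0.40 and 0.35). No fold is given for TNF, and its 3 transcript clusters held identical values.

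Taken clone by clone, 7 of the 9 genes were higher in clone 1 than in shGFP cells, where 23.0% of all genes were, and 9 of 9 were higher in clone 2, where 25.2% were. Without clone 2 replicate 2, shGFP replicate 1 or shGFP replicate 2, the count in clone 2 was 4, 5 and 5. CCL20, CCL5, CSF1 and IL32 passed in clone 2 with every array left out in turn. Clone 1 and clone 2 differed in 3 of the 9, CCL20 and CSF3 (higher in clone 1) and IL32 (higher in clone 2), where 15.2% of all genes differed. Against parental cells 6 of the 9 were higher in the shEI24 clones (CCL20, CCL5, CSF1, CSF3, IL32 and CX3CL1), where 25.1% of all genes were. LTB and TNF exceeded parental cells by 0.41 and 0.33 and did not pass (limma adjusted p = 0.055 and 0.052).

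**Figure D2:**
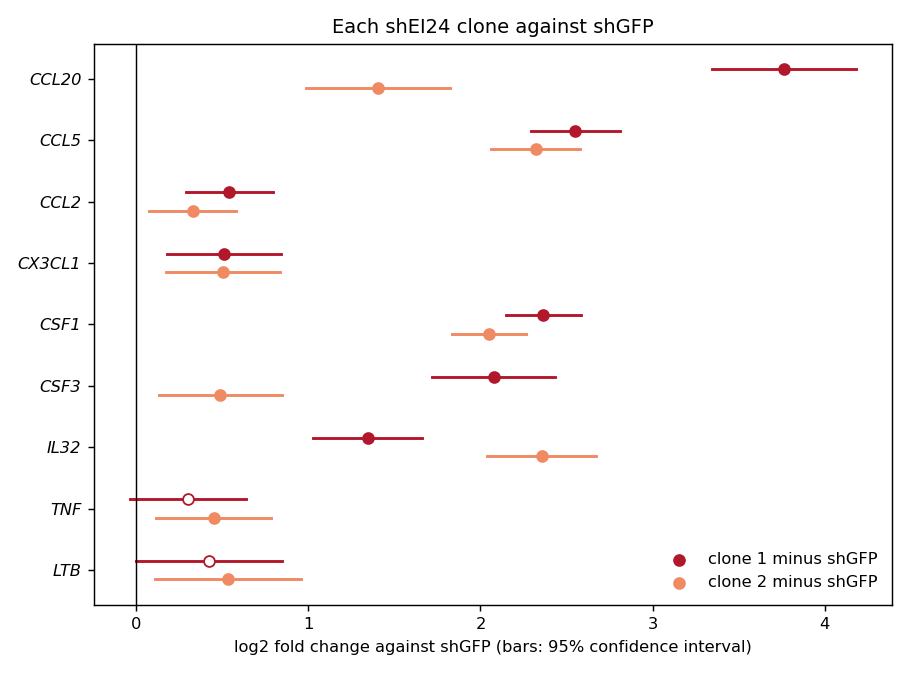
Log2 fold change against shGFP cells (horizontal axis) of each gene in clone 1 (dark red) and clone 2 (orange), with 95% confidence intervals from the limma fit; filled points have an adjusted p under 0.05. CCL20 and CSF3 are further right in clone 1, IL32 is further right in clone 2, and the open points are TNF and LTB in clone 1.

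By level, CCL20 and CSF3 ran in the order clone 1, clone 2, then shGFP and parental cells, which did not differ beyond their spread. IL32 ran clone 2, clone 1, then shGFP and parental cells. For CCL5 and CSF1 the neighbours clone 1 and clone 2 did not pass the test of their difference, nor did the 2 controls. In CX3CL1, LTB and TNF the clones came first and did not differ from each other beyond their spread, and clones exceeded parental cells by 0.26 (TNF in clone 1) to 0.47 (LTB in clone 2). For CX3CL1 the difference from parental cells was 0.39 in clone 1 and 0.39 in clone 2 (limma adjusted p = 0.0504 and 0.0502), while over both clones it passed. CCL2 was the only 1 of the 9 in which a control was not below the clones, with 6.59 in clone 1, 6.38 in clone 2, 6.05 in shGFP cells and 6.59 in parental cells.

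Of 15 listed receptors of these ligands 13 were measured, and against shGFP 4 rose, 1 fell and 8 did not pass (26.8% of all genes rose and 29.0% fell), with a median log2 fold change of 0.27 (0.09 after a second quantile normalization). CSF2RA, the α chain of the CSF2 receptor, passed with levels of 6.61 in clone 1 and 7.51 in clone 2, against 6.04 in shGFP cells (limma adjusted p = 0.00045), at least 1.26-fold over both clones. Clone 2 was above background and clone 1 and shGFP cells were not, and the fitted difference of clone 1 from clone 2 was −0.90 (limma adjusted p = 0.011). The TNF receptors TNFRSF1A and TNFRSF1B rose by 0.61 and 0.41, and LTBR rose by 0.32, although LTBR did not pass against parental cells (−0.05). ACKR2, a decoy receptor that takes up CC chemokines, fell by 0.58 against shGFP and did not pass against parental cells (−0.19, limma adjusted p = 0.11). CCR1, CCR2, CCR6, CX3CR1, CSF3R and ACKR1 were not above background in any line. CSF1R, the receptor of CSF1, had means of 6.84 in clone 1 and 6.90 in clone 2, against 6.60 in shGFP and 6.72 in parental cells, and did not pass (0.27, limma adjusted p = 0.057).

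Other ligands of the same families were read beside these. Of 20 measured (CC and XC chemokines and IL34, a second ligand of CSF1R), 6 rose, none fell and 14 did not pass (26.8% of all genes rose), with a median of 0.13. A second quantile normalization, which moved the median of all genes to −0.02, gave 4 that rose, 2 that fell and a median of −0.03. CCL28, an epithelial chemokine for CCR10 and CCR3, rose by 2.95 ± 0.09 (limma adjusted p = 1.2e-08), at least 4.14-fold, since shGFP cells were not above background. CCL26, an eosinophil attractant, rose by 1.00 ± 0.17, at least 1.19-fold. CCL3 rose by 0.94 ± 0.10 and, as with IL32, its level in clone 1 was under that in clone 2 (−1.0002 ± 0.12, limma adjusted p = 0.0011). CCL3 is uncertain, because near-identical copies of the gene can bind the same probes. CCL18 rose by 0.42 and was not above background in any line. Of the 20 genes, 10 were above background in some line.

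Among 13 other TNF superfamily ligands 7 rose, none fell and 6 did not pass (26.8% of all genes rose and 29.0% fell), with a median of 0.27; a second quantile normalization gave 4 that rose, 1 that fell and a median of 0.11. TNFSF15 rose by 2.74 ± 0.13, and its level was 9.62 in clone 1 and 9.48 in clone 2, against 6.81 in shGFP cells. TNFSF10 (TRAIL), a death ligand, rose by 2.25 ± 0.09, at least 1.51-fold, as shGFP cells were not above background. TNFSF9, the ligand of the T cell costimulator 4-1BB, rose by 1.62 ± 0.08. TNFSF18 rose by 0.41 and was not above background in any line. Of the 13 genes, 6 were above background in some line. LTA, the partner of LTB, rose by 0.27 ± 0.08 (limma adjusted p = 0.015), a call that was lost after that normalization.

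Of 21 measured NF-κB subunits, kinases and feedback inhibitors, 17 rose, 1 fell and 3 did not pass (26.8% of all genes rose and 29.0% fell), with a median of 0.71. TNFAIP3 (A20), a ubiquitin-editing inhibitor of NF-κB signaling, rose by 5.11 ± 0.10 (limma adjusted p = 1.3e-09), at least 26.6-fold, as shGFP cells were not above background. NFKBIZ, an atypical nuclear IκB, rose by 3.25 ± 0.09, at least 9.39-fold. It was lower in shGFP than in parental cells by −1.46. TNIP1, a partner of A20, rose by 2.80, and CYLD, a deubiquitinase, rose by 2.71. The subunit REL fell by 0.70 ± 0.11. Clone 1 differed from clone 2 in 9 of these 21 genes, where 15.2% of all genes differed, and all 9 were lower in clone 1, TNFAIP3 (−0.73) and NFKBIA (−0.62) among them. Of the 9 chemokine, colony-stimulating factor and TNF family genes, CCL20 and CSF3 were higher in clone 1. IL32 was lower in clone 1 (−1.01), and the other 6 did not pass. Whether these differences are linked to those of the NF-κB genes was not tested.

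Genes that shed membrane-bound cytokines or act on cytokine mRNA were also listed. Of 18, all measured, 11 rose, 3 fell and 4 did not pass (26.8% of all genes rose and 29.0% fell), with a median of 0.57. Against parental cells 8 rose, 3 fell and the median was 0.13. ADAM10 and ADAM17, the sheddases of CX3CL1 and TNF, rose by 0.67 ± 0.08 and 0.54 ± 0.08. DPP4, which trims chemokines such as CCL5 at the amino terminus, rose by 1.57 ± 0.17, at least 1.52-fold. ZFP36L1 and ZFP36, which bind AU-rich elements and promote decay of cytokine mRNA, rose by 1.43 and 1.30, and for ZFP36 clone 1 minus clone 2 was −1.20. SPPL2A and SPPL2B, intramembrane proteases that cleave the TNF stalk, fell by 1.71 and 0.42. RC3H1 (Roquin-1), which promotes decay of TNF mRNA, fell by 0.40.

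Of 21 transcription factors, 15 rose, 5 fell and 1 did not pass (26.8% of all genes rose and 29.0% fell), with a median of 0.54. The list held members of the AP-1, C/EBP and IRF families and, from other families, NFATC1, NFATC2, ETS1 and EGR1. ETS1 rose by 5.47 ± 0.09 (limma adjusted p = 9.3e-10), at least 26.4-fold. EGR1 rose by 2.86 ± 0.09, and clone 1 minus clone 2 was −2.31 ± 0.10, the direction of IL32. The AP-1 members FOSL1 and FOSL2 rose by 2.47 and 1.78, and BATF and FOS fell by 0.95 and 0.93. FOS was lower in shGFP than in parental cells by −0.78.

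The genes next to these 9 on their chromosomes were compared in the same fit. Of 48 measured neighbours, up to 3 on each side, 10 rose, 10 fell and 28 did not pass, with a median of 0.09, where 26.8% of all genes rose, 29.0% fell and the median was 0.08. On chromosome 2, DAW1, an assembly factor for dynein arms, is the next gene after CCL20. DAW1 measured 7.14 in clone 1 and 5.88 in clone 2, against 5.15 in shGFP cells and 5.09 in parental cells, with only clone 1 above background. Its level in clone 1 was at least 1.31-fold that in clone 2 (limma adjusted p = 0.0010). PID1, an adaptor protein 2 genes further along, rose by 1.46 ± 0.10 and was also higher in clone 1, by 0.60 ± 0.12 (limma adjusted p = 0.011). SPHKAP, between them, did not pass (0.19), nor did SLC19A3 on the other side of CCL20 (0.12). Further out on that side, AGFG1 rose by 0.27 ± 0.07 (limma adjusted p = 0.0093). RDM1 beside CCL5 and THOC6 near IL32 fell by 1.53 and 1.43, and NR1D1 near CSF3 and PLLP near CX3CL1 rose by 1.18 and 1.16. CCL7, CCL11 and CCL8, which lie with CCL2 on chromosome 17, did not pass, and neither did CCL22 and CCL17 beside CX3CL1 on chromosome 16.

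**Figure D3:**
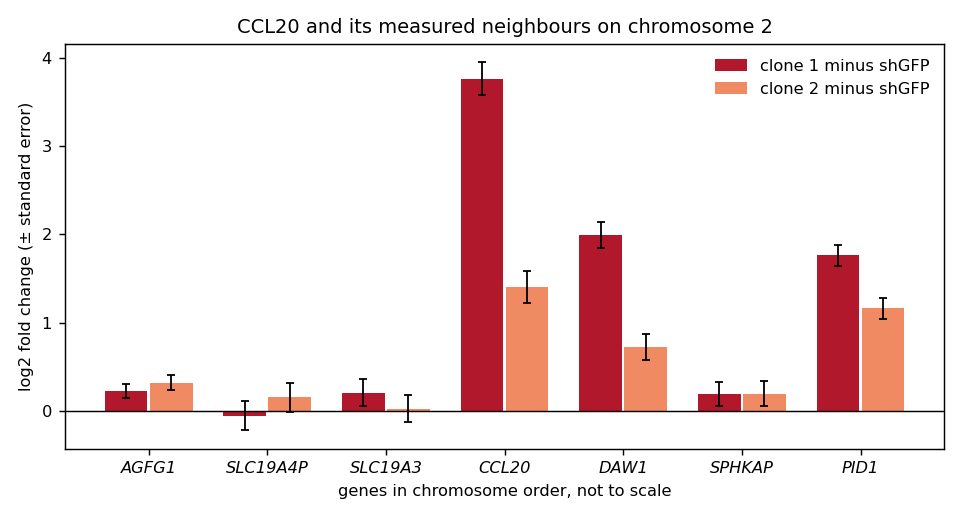
Log2 fold change against shGFP cells (vertical axis, ± standard error) of CCL20 and the 3 nearest measured genes on each side, in chromosome order, for clone 1 (dark red) and clone 2 (orange). CCL20, DAW1 and PID1 are higher in clone 1 than in clone 2, and the bars of the other 4 genes are between −0.05 and 0.32.

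For CCL20, CCL5 and CSF1, the 3 genes with the largest fitted log2 differences (that of CCL20 against a line not above background), the genes with the nearest profile over the 8 arrays were found, after each profile was centred on its own mean, by Euclidean distance in log2 units. Nearest to CCL20 were COL8A1 (0.49), a short-chain collagen, TMEM45A (0.63) and TNIP3 (0.63), an A20-binding protein. Nearest to CCL5 were STEAP2 (0.24), a metalloreductase, RND3 (0.26) and PLPP1 (0.34), a lipid phosphatase. Nearest to CSF1 were SH3RF2 (0.26), PXDN (0.27), an extracellular matrix peroxidase, and TNFAIP2 (0.27), a gene named for its induction by TNF. These distances are descriptions over 8 arrays of 4 lines.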

How the data were processed

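The authors deposited log2 intensities for each transcript cluster on each array, made with GCOS and RMA (no version) according to the submitters' processing notes. RMA subtracts background, quantile-normalizes arrays and summarizes probes, which compresses differences near background. Array medians were 7.28 to 7.39, and precision is limited by how few arrays there are. The methods name an exon array, while the identifiers matched the annotation of a gene-level array of that family. Of 33297 clusters, 19460 had 1 gene symbol, 1754 had several and 12083 were unnamed here. The cluster with the highest mean was kept per gene, leaving 18417 genes.

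A mean per line was fitted to all 8 arrays with limma 3.58.1 (lmFit and eBayes, R 4.3.3, 4 residual degrees of freedom), with Benjamini-Hochberg adjustment over all genes and a threshold of 0.05. The main comparison was the mean of both shEI24 clones minus shGFP, with no replicate block. The fit was tested on data simulated with independent noise and the same effect in both clones. That test therefore does not cover differences between clones or shifts shared by arrays of the same replicate number. EI24 and all listed genes were named in every comparison. Of each other list up to 4 called genes with the largest change and up to 2 against its majority were named, and a few more were named after their values were seen. Likewise the 3 nearest profiles of 3 genes and up to 4 called neighbours were named, with a few more neighbours added later. The members and lists were chosen with earlier results of these data known. Alternatives covered controls, normalization, variance model, low values, cluster choice, the replicate block, an unpaired test per gene and each array left out.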

Additional observations from a re-analysis of the deposited data

Results flagged for a closer look

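The 2 shEI24 clones differed from each other, by limma's test of the difference, in 3 of the 9 genes. Clone 1 minus clone 2 was 2.36 for CCL20, 1.59 for CSF3 and −1.01 for IL32 on the log2 scale, with CCL20 and CSF3 higher in clone 1 and IL32 lower in clone 1. Each of these differences passed with each array left out in turn.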

How the results depend on the processing

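CCL5, CSF1 and IL32 passed against shGFP in all 21 alternatives run, with log2 fold changes of 2.31 to 2.57, 2.13 to 2.28 and 1.79 to 2.16. The count of the 9 genes that passed was 5 with each line as 1 replicate and the controls pooled, and 5 with a 2-fold limit. By the methods' t-test it was 5 unadjusted and 4 after Benjamini-Hochberg, and it was 6 to 9 with 1 array left out. These sets of 5 differed. With each line as 1 replicate they were CCL5, CSF1, IL32, CX3CL1 and LTB. With the 2-fold limit they were CCL20, CCL5, CSF1, IL32 and CSF3. By the unadjusted t-test they were CCL5, CSF1, IL32, CX3CL1 and CCL2. Over all genes 10289 passed, against 6166 with each line as 1 replicate, 3272 with a 2-fold limit and 7972 to 10977 with 1 array left out. With parental cells as the control, CCL2 reversed to −0.11. With 1 array left out, the count was 6 to 9 in clone 1, 4 to 9 in clone 2, 3 between clones, and 0 to 1 between shGFP and parental cells, where it was also 0 without dim genes. CCL2 and TNF are dim and have no value without dim genes, and the cause of the other changes was not tested. Among the log2 fold changes of single genes, 522 values stayed on their side of the threshold (14 with the sign turned, none of them called), 46 lost and 6 gained a call. In some of these alternatives, and in some of the 21 above, the fold change could not move and only its p-value could. Leaving out an array that is not part of a comparison is 1 such case.

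The arrays share replicate numbers, and the difference between replicates correlated over genes by 0.25 to 0.59 between lines, while no source says that a number marks a shared batch or day. With the number as a replicate block, 12050 of all genes passed, as did all 9 chemokine, colony-stimulating factor and TNF family genes, and 2 calls changed: LTB in clone 1 (0.43, limma adjusted p = 0.0020) and CSF1 between clones (0.31, limma adjusted p = 0.036). CSF1 between clones also passed without dim genes (limma adjusted p = 0.040).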
